A study of Mus musculus with 2 samples.

Results

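Lgals1, Lgals3, Lgals7, Lgals9 and Lgals3bp, 5 of the 33696 genes listed with the counts, were followed through the cell classes of 2 endothelium-enriched single-cell libraries from mouse mammary tumors. They were chosen by their measured levels in these libraries, so the levels and the differences between libraries are given as descriptions without a test. PyMT-M (High-MAC, macrophage-enriched) and PyMT-N (Low-MAC) are C57BL/6 sublines of the MMTV-PyMT mammary tumor, in which the mammary tumor virus promoter drives polyoma middle T antigen. Cells of each subline were injected into the fourth mammary fat pad of female C57BL/6 mice aged 6 to 8 weeks, and both models received no other treatment that the sources used here name. Each library pooled 3 tumors from which CD45+ and Ter119+ cells had been removed, and cells were then taken with CD31 and CD144 beads and sorted for both proteins, so each model is 1 subline and 1 library, with no replicate error. The leukocytes, fibroblasts and tumor cells below are those that passed this enrichment.

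Galectins are lectins that bind beta-galactosides on glycoproteins and glycolipids. They lack a signal peptide, leave cells by a non-classical route, and cross-link receptors at the cell surface. Galectin-1 and galectin-7, encoded by Lgals1 and Lgals7, carry a single carbohydrate recognition domain. Galectin-3, from Lgals3, joins such a domain to a collagen-like tail, and galectin-9, from Lgals9, holds a tandem pair of domains. Lgals3bp encodes a secreted glycoprotein of the scavenger receptor cysteine-rich family that galectins bind, and it is no lectin of the galectin fold itself. Lgals9 and Lgals3bp are known as interferon-induced genes, Lgals3 as a product of macrophages and many carcinomas, Lgals7 as a gene of stratified epithelium, and Lgals1 as a gene of mesenchyme and activated endothelium.

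Promoters of the 2 members known as interferon-induced are shown first, because their levels in blood endothelial cells are compared below with those of interferon-induced genes. RefSeq sequences of build GRCm38.p6 were at hand for 4 of the 5 members; Lgals1 was not matched. Each line holds 100 bases before and 30 bases after the annotated start, 5′ to 3′ on the gene's strand, and capitals mark the interferon-stimulated response element core GAAANNGAAA, searched on both strands.
Lgals9 (chr11:78984895-78985024, minus strand): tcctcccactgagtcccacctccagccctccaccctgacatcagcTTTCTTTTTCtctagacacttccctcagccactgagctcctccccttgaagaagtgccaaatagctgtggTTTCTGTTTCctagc
Lgals3bp (chr11:118401930-118402059, minus strand): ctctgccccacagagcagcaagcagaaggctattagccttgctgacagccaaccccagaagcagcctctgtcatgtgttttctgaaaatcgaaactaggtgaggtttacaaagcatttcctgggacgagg
Over the full 300-base windows, which run from 250 bases before to 50 after the start, the Lgals9 promoter held 2 matches, both on the opposite strand, whose first bases lie at positions -55 and 16 from the start. A match was present in 3.44% of all 32851 promoter windows of this length. Only exact matches to GAAANNGAAA were searched, and the windows of Lgals3bp, Lgals3 and Lgals7 held none. None of the 4 windows held the GAS letters TTCNNNGAA (8.30% of all windows), the AP-1 letters TGANTCA (7.81%) or TATAAA (13.6%).

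Of 7821 and 6974 barcodes, 6719 PyMT-M and 5607 PyMT-N cells had at least 200 detected genes and at most 10% mitochondrial UMIs, with median depths of 21262 and 18558 UMIs. Both libraries held 20 barcodes in common, of which 12 were kept in both. Blood endothelial cells (at least 5 UMIs of Pecam1, Flt1, Emcn and Kdr and at most 1 of Krt8, Krt18 and Rhox5) numbered 598 in PyMT-M and 1243 in PyMT-N, with median depths of 5196 and 12601 UMIs. All 8 further endothelial markers were detected in them in both libraries, at 6059 and 6122 summed CPM, where CPM scales the UMIs of a class to a total of 1000000. Tumor cells (at least 3 UMIs of Krt8, Krt18 and Rhox5 and none of Pecam1 and Flt1) numbered 4902 and 3306. The label rests on the rule's genes alone: Epcam, Krt19, Krt7, Cdh1, Cldn7 and Cldn4 summed to 3.62 CPM in PyMT-M and 1.48 CPM in PyMT-N, and none was seen in 10% of the cells. The rule took PyMT-M tumor cells by Rhox5 (669 CPM) and Krt8 (268 CPM), with Krt18 at 0.066 CPM, and PyMT-N tumor cells by Krt18 (1003 CPM) and Krt8 (808 CPM), with Rhox5 at 14.5 CPM. Lymphatic cells (at least 3 UMIs of Prox1, Mmrn1 and Reln) numbered 20 and 207, fibroblasts (Col3a1 at or above 3000 CPM) 58 and 63, and Ptprc+ cells (at least 1 Ptprc UMI) 488 and 357.

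The classes are not exclusive. In PyMT-N, 174 lymphatic and 58 Ptprc+ cells also counted as blood endothelial, against 8 and 6 in PyMT-M. Myeloid markers in the blood endothelial cells summed to 29.9 CPM in PyMT-M and 354 CPM in PyMT-N, and lymphatic markers to 123 and 1985 CPM. Mural cell markers summed to 250.02 and 113 CPM, of which Acta2, a smooth muscle and pericyte gene, gave 163 CPM in PyMT-M and 2.26 CPM in PyMT-N, so the other mural markers were not lower in PyMT-N. Cells with more than 1 keratin or Rhox5 UMI made up 12 of 58 PyMT-M and 19 of 63 PyMT-N fibroblasts, 63 of 488 and 41 of 357 Ptprc+ cells, and 1 of 20 and 13 of 207 lymphatic cells. For several results below, values without such cells are given beside those with them. Intervals in brackets are exact 95% intervals for counting error only, Poisson for levels and ratios and Clopper-Pearson for shares.

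The order of levels across the classes varied among the genes and between the libraries. With all cells of each class, Lgals3 in PyMT-M and Lgals7 in PyMT-N shared 1 order. It ran from tumor cells through Ptprc+ cells, fibroblasts and lymphatic cells to blood endothelial cells. The order was not shared without Ptprc+ cells, fibroblasts and lymphatic cells of more than 1 keratin or Rhox5 UMI. PyMT-M Lgals3 was then 1278 CPM (1207 to 1352) in Ptprc+ cells, beside 1252 CPM in tumor cells. PyMT-N Lgals7 was then 67.1 CPM in fibroblasts, above 29.3 CPM in Ptprc+ cells. In PyMT-N, Lgals3 was highest in Ptprc+ cells, at 157 CPM against 129 CPM in tumor cells. The PyMT-M intervals of Lgals7 overlapped from tumor cells to fibroblasts and from those to Ptprc+ cells. Lgals1 was highest in fibroblasts, at 5351 CPM in PyMT-M and 5345 CPM in PyMT-N, followed by tumor cells at 3104 and 3761 CPM. Ptprc+ cells came next, at 1994 and 1554 CPM, and the endothelial classes held the least. Without cells of more than 1 keratin or Rhox5 UMI, the Ptprc+ levels of Lgals1 were 949 and 744 CPM, while the fibroblast levels were 5444 and 5963 CPM. In the lymphatic class Lgals1 stood at 742 CPM in PyMT-M, whose interval overlapped that of blood endothelial cells, and at 867 CPM in PyMT-N. Without the single keratin-bearing PyMT-M cell and the 13 in PyMT-N it was 415 CPM (280 to 593) and 640 CPM, and in PyMT-M the interval then lay below that of blood endothelial cells.

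Lgals9 had a different order, with blood endothelial cells first in both libraries, at 528 CPM (504 to 553) in PyMT-M and 303 CPM (295 to 312) in PyMT-N. Blood endothelial cells held 11.9 times the tumor-cell level in PyMT-M and 6.51 times that level in PyMT-N. In PyMT-M, lymphatic cells (124 CPM), fibroblasts (110 CPM) and Ptprc+ cells (79.6 CPM) followed with intervals that overlapped from each to the next. In PyMT-N they were separated, with lymphatic cells at 171 CPM, Ptprc+ cells at 107 CPM and fibroblasts at 73.8 CPM. Tumor cells were last at 44.5 and 46.6 CPM.

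Lgals3bp was highest in fibroblasts, at 393 CPM in PyMT-M and 115 CPM in PyMT-N. Blood endothelial cells were second in PyMT-M, at 246 CPM, with an interval overlapping that of the 20 lymphatic cells at 157 CPM. In PyMT-N the levels of Ptprc+ (66.7 CPM), lymphatic (64.5 CPM) and blood endothelial cells (64.1 CPM) could not be separated by their counting intervals. Of the 183 lymphatic UMIs there, 148 were also counted as blood endothelial, so these 2 classes are not compared independently.

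**Figure D1:**
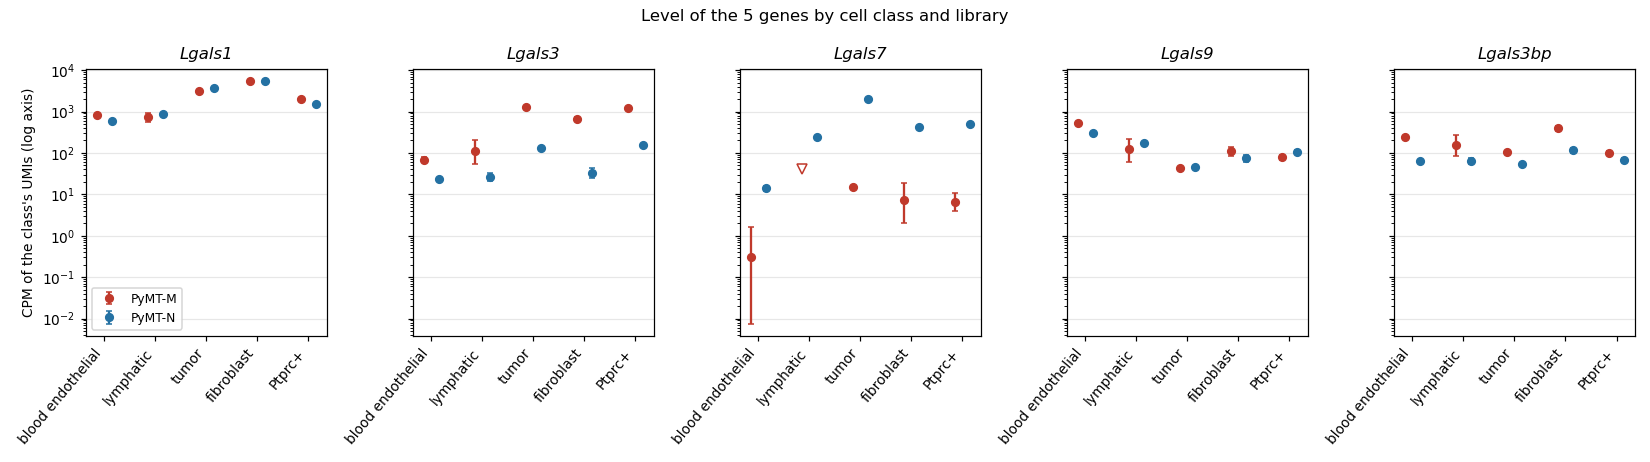
Level of each gene (CPM of the class's UMIs, log axis) in the 5 cell classes of the PyMT-M (red) and PyMT-N (blue) library, with exact 95% Poisson intervals; the open triangle is the upper limit for Lgals7 in PyMT-M lymphatic cells, where no UMI was counted. Lgals9 is highest in blood endothelial cells of both libraries, Lgals1 and Lgals3bp in fibroblasts, and Lgals7 in PyMT-N tumor cells at 2063 CPM.

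Lgals3 and Lgals7 set the tumor cells of the libraries apart in opposite directions. Lgals3 stood at 1252 CPM in PyMT-M tumor cells and 129 CPM in PyMT-N tumor cells, which gives 3.28 (3.25 to 3.31) as the log2 ratio, PyMT-M divided by PyMT-N throughout. Lgals7 stood at 14.9 CPM in PyMT-M against 2063 CPM in PyMT-N, with a log2 ratio of -7.11 (-7.18 to -7.04). Of the UMIs of the 5 genes in tumor cells, Lgals3 held 27.7% in PyMT-M against 2.13% in PyMT-N. Lgals7 held 0.330% against 34.1%.

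These differences ran through nearly the whole tumor class rather than a small set of cells. An Lgals3 UMI was found in 99.1% of PyMT-M and 61.8% of PyMT-N tumor cells, and in 78.5% and 18.5% after every cell was thinned to 2000 UMIs. An Lgals7 UMI was found in 20.8% and 98.1% of the cells, and in 3.06% and 89.0% after thinning. The median tumor cell of PyMT-M held 1004 CPM of Lgals3 and none of Lgals7, whereas that of PyMT-N held 51.7 CPM of Lgals3 and 1931 CPM of Lgals7. Counted by UMIs, which are not scaled by transcript length, Lgals3 exceeded Lgals7 in 98.7% of PyMT-M tumor cells (98.4 to 99.0) and Lgals7 exceeded Lgals3 in 94.9% of PyMT-N tumor cells (94.1 to 95.7).

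A tail of cells went against the rest of its library. In PyMT-M, Lgals7 exceeded Lgals3 in 13 of 4902 tumor cells, and in PyMT-N Lgals3 exceeded Lgals7 in 111 of 3306. The highest PyMT-N tumor cell held 92 UMIs of Lgals3, and the top 10% of cells by Lgals3 held 53.3% of its UMIs there, against 31.7% in PyMT-M. Sparser counts raise such a share, and Lgals3 was the sparser in PyMT-N, so the spread cannot be compared between the libraries from it.

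**Figure D2:**
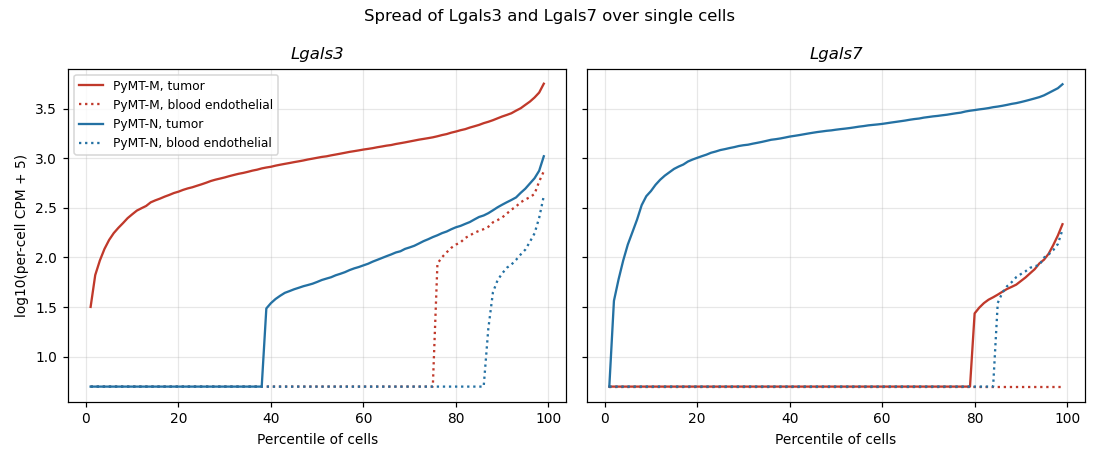
Per-cell CPM (log10 after adding 5) of Lgals3 and Lgals7 against the percentile of cells, in tumor cells (solid) and blood endothelial cells (dotted) of PyMT-M (red) and PyMT-N (blue). The PyMT-M tumor curve lies above the PyMT-N one for Lgals3 and far below it for Lgals7, where the PyMT-N median is 1931 CPM and the PyMT-M median is 0.

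In tumor cells Lgals1 and Lgals9 differed by less than 2-fold between the libraries, and Lgals3bp by just over it. Lgals1 was lower in PyMT-M by a log2 ratio of -0.28 (-0.28 to -0.27), and Lgals9 had a ratio of -0.07 (-0.13 to -0.01) that turned positive under other scalings, at 0.13 with totals that leave out mitochondrial, ribosomal-protein and hemoglobin genes and at 0.019 with the median of all genes set to 0. Lgals3bp was 2.04 times as high in PyMT-M, at 108 against 52.9 CPM. Beyond 2-fold, 2 of the 5 genes were higher in PyMT-M tumor cells and 1 lower, where 21.0% of the 14996 genes with at least 50 UMIs were higher and 25.6% were lower. Tumor cells with at least 3 UMIs of the cycling genes Mki67 and Top2a numbered 3241 in PyMT-M and 144 in PyMT-N. In PyMT-M these held less Lgals3 than cells with none (1106 against 1820 CPM), which was not seen in PyMT-N (133 against 129 CPM). For Lgals1 the cycling cells held 3153 against 2846 CPM in PyMT-M and 5147 against 3582 CPM in PyMT-N. Cycling cells were deeper than those with none, at medians of 26111 against 19402 UMIs in PyMT-M and 35110 against 19992 UMIs in PyMT-N. A fixed number of UMIs depends on depth and need not pick the same cells in both libraries.

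In blood endothelial cells 4 of the 5 genes had higher levels in PyMT-M and Lgals7 had a lower one. Lgals3bp differed the most of the 4, at 246 CPM (229 to 263) in PyMT-M and 64.1 CPM (60.4 to 68.0) in PyMT-N, for a log2 ratio of 1.94 (1.81 to 2.07). Lgals3 stood at 69.4 CPM (60.7 to 78.9) and 23.0 CPM (20.8 to 25.3), a log2 ratio of 1.60 (1.36 to 1.83). Lgals9 had a log2 ratio of 0.80 (0.72 to 0.88). Lgals1, at 837 and 582 CPM, had a ratio of 0.52 (0.46 to 0.58). Beyond 2-fold, 2 genes were higher in PyMT-M (Lgals3 and Lgals3bp), where 3.82% of the 11950 genes with at least 50 UMIs were, and 1 was lower, where 8.38% were. Since the members were chosen with these ratios known, nothing is read from those counts.

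The share of cells with a UMI followed the levels once depth was equal. Thinned to 2000 UMIs, 33.4% of PyMT-M blood endothelial cells held an Lgals3bp UMI against 11.0% in PyMT-N, 58.6% against 39.6% an Lgals9 UMI, and 11.6% against 3.46% an Lgals3 UMI. For Lgals1 the thinned shares were 61.4% and 55.2%. Without thinning, PyMT-N had the higher share for Lgals1 (89.6% against 76.4%) and Lgals9 (89.2% against 80.3%), at more than 2 times the depth. Thinning left out 38 PyMT-M cells and 1 PyMT-N cell.

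**Figure D3:**
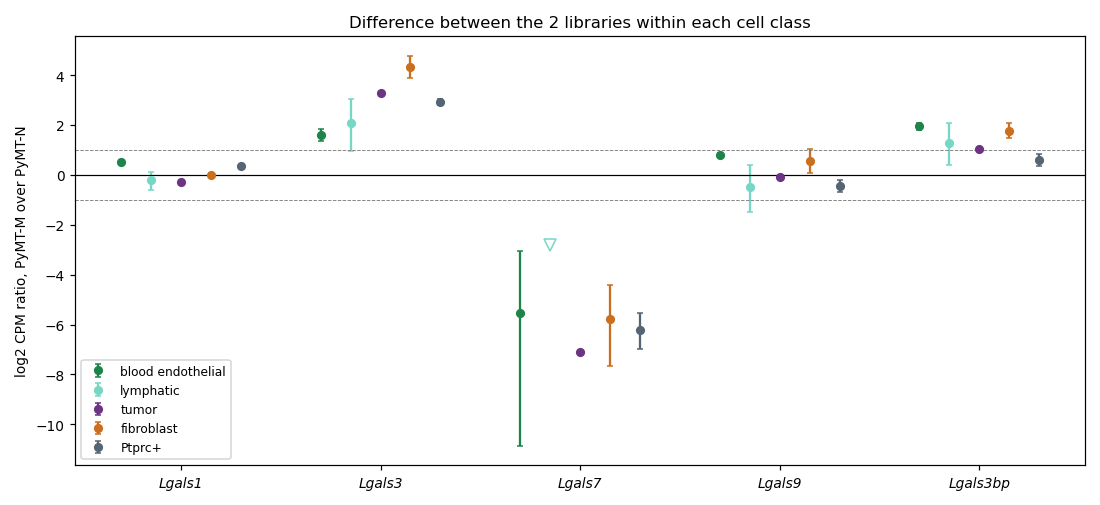
log2 ratio of CPM (PyMT-M divided by PyMT-N) for each gene in each cell class, with exact 95% intervals for counting error and dashed lines at 2-fold; the open triangle is an upper bound for lymphatic cells, with PyMT-M at 0 set to 3 counts. Lgals3 and Lgals3bp lie above 0 in all 5 classes and Lgals7 below 0, while Lgals1 and Lgals9 lie on both sides.

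Lgals7 in blood endothelial cells rested on 1 UMI in PyMT-M (0.299 CPM) and 241 UMIs in PyMT-N (13.9 CPM), for a log2 ratio of -5.54 with an interval from -10.85 to -3.05. In PyMT-N 15.4% of the cells held an Lgals7 UMI, and 3.22% after thinning, beside 89.0% of thinned tumor cells. The PyMT-N endothelial level was 0.676% of the tumor-cell level. For the tumor-cell genes that the rule does not use, the same value was 0.884% for Spp1, 0.640% for Hmga2, 1.21% for Ibsp and 0.674% for Dmp1, so Lgals7 stood at the level that these tumor-cell transcripts reached in blood endothelial cells. The part of tumor-cell RNA in it was not tested.

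Lgals3 in blood endothelial cells reached 5.54% of the tumor-cell level in PyMT-M, where Spp1 reached 2.29%, Hmga2 1.69% and Epcam, on 1 endothelial UMI, 8.51%. In PyMT-N it reached 17.8%, or 9.92% in the 1013 cells that met the rule of no other class. In those cells its level was 12.8 CPM against 64.1 CPM in the 583 such PyMT-M cells, a log2 ratio of 2.32 (2.03 to 2.62). In PyMT-N 13.0% of blood endothelial cells held an Lgals3 UMI. The top 10% of cells held 90.4% of its UMIs, a share that such sparse counts raise. The 314 PyMT-N cells without a tip cell UMI had 55.8 CPM against 10.4 CPM in the 689 with at least 3. Cells without capillary (50.9 against 13.2 CPM), arterial (34.2 against 11.1) or venous UMIs (39.1 against 20.8) were also higher there. Those without cycling UMIs were lower (18.0 against 41.3 CPM). In PyMT-M the tip values were 75.9 and 69.7 CPM. Cells without arterial UMIs were higher in PyMT-M too, at 76.2 against 34.3 CPM, the latter on 9 UMIs. Its log2 ratio, with over without, was -1.15 (-2.30 to -0.20). The PyMT-M values without and with UMIs were 92.9 and 66.4 CPM for capillary and 69.6 and 60.1 CPM for venous genes. For cycling genes they were 69.4 and 72.1 CPM. The PyMT-M intervals for tip, capillary, venous and cycling genes included 0. Of the 397 PyMT-N Lgals3 UMIs, 176 lay in the 1013 cells of no other class and 44 in the 174 cells that were also lymphatic. The rest lay in cells that were also Ptprc+, at most 58 of them, and the PyMT-N marker-group levels above include these cells. The part of Ptprc+ cells in the PyMT-M level and in the differences between marker groups was not tested. Nor was the part of tumor-cell RNA in the Lgals3 levels.

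In blood endothelial cells Lgals1 held 27.0% and 15.5% of the tumor-cell level in PyMT-M and PyMT-N, Lgals3bp 228% and 121%, and Lgals9 1188% and 651%.

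**Figure D4:**
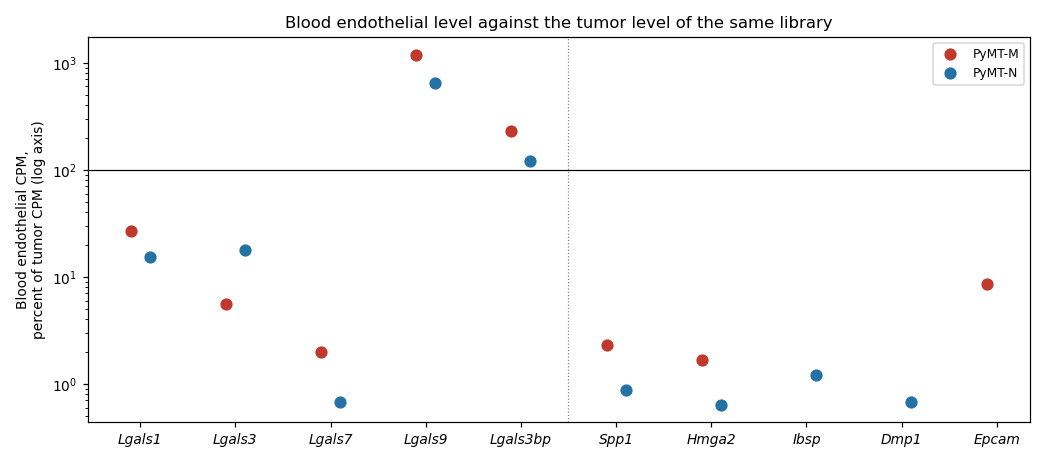
Level in blood endothelial cells as a percent of the level in tumor cells of the same library (log axis), for the 5 genes and, right of the dotted line, tumor-cell genes that the rule does not use; genes with under 50 tumor-cell UMIs in a library are left out, as is Ibsp in PyMT-M at 0 endothelial UMIs, and Epcam in PyMT-M rests on 1 endothelial UMI. Lgals7 in PyMT-N lies at 0.676%, among Spp1, Hmga2, Ibsp and Dmp1, while Lgals9 and Lgals3bp lie above the line at 100%.

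Within blood endothelial cells, Lgals9 and Lgals3bp moved with interferon-induced chemokines and antiviral genes. Cells with at least 3 UMIs of Cxcl9, Cxcl10, Rsad2 and Ifit1 held 707 CPM of Lgals9 against 350 CPM in cells with none in PyMT-M, and 531 against 230 CPM in PyMT-N. For Lgals3bp the levels were 324 against 163 CPM in PyMT-M and 131 against 38.7 CPM in PyMT-N. The log2 ratios were 1.02 and 1.21 for Lgals9 and 0.99 and 1.77 for Lgals3bp. Lgals1 differed little by the same division, at -0.10 and 0.02, with intervals that include 0, and so did Lgals3, at 0.18 and -0.08. The cells with these UMIs were the deeper ones, at a median of 5985 against 3899 UMIs in PyMT-M and 13259 against 11939 UMIs in PyMT-N.

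The difference between libraries was present on both sides of this division. In cells with at least 3 of these UMIs (213 PyMT-M, 255 PyMT-N), the log2 ratio between libraries was 0.41 (0.30 to 0.52) for Lgals9 and 1.30 (1.12 to 1.49) for Lgals3bp. In cells with none (203 and 723) it was 0.61 (0.44 to 0.77) and 2.07 (1.79 to 2.35). Depth differs between the libraries, so a fixed number of UMIs does not pick the same cells in both. Across cells thinned to 5000 UMIs, Spearman's rho between Lgals9 and Lgals3bp was 0.26 in 309 PyMT-M cells and 0.17 in 1191 PyMT-N cells, weak values in sparse counts that share a library.

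Marker groups of vessel states divided the members further. The groups overlap: at least 3 UMIs were held by 281 PyMT-M and 689 PyMT-N cells for tip, 131 and 661 for venous, and 477 and 951 for capillary genes. These were drawn from 598 and 1243 cells. Tip cells were deeper than cells with none, at medians of 6296 against 3644 UMIs in PyMT-M and 13764 against 10607 UMIs in PyMT-N. Cells with at least 3 UMIs of the tip cell genes Apln, Esm1, Angpt2 and Pgf, which mark sprouting endothelium, held more Lgals1 than cells with none, 984 against 500 CPM in PyMT-M and 632 against 446 CPM in PyMT-N. Cells with venous UMIs (Selp, Sele, Ackr1 and Lrg1, adhesion and inflammation genes of postcapillary vessels) held less, 374 against 1093 CPM in PyMT-M and 495 against 751 CPM in PyMT-N. In cells with at least 3 venous UMIs, Lgals1 was lower in PyMT-M than in PyMT-N, at a log2 ratio of -0.40 (-0.59 to -0.23), opposite in sign to the whole class. This group took 131 of 598 PyMT-M cells and 661 of 1243 PyMT-N cells, at median depths of 5170 and 12827 UMIs. The fixed number of UMIs therefore does not pick the same cells in both libraries, and the difference between states was not tested.

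Lgals9 followed capillary genes, and so did Lgals3bp. Cells with at least 3 UMIs of Gpihbp1, Cd36 and Rgcc held 568 CPM of Lgals9 against 232 CPM in the 48 PyMT-M cells with none, and 341 against 156 CPM in the 191 such PyMT-N cells. Lgals1 went in opposite directions between the libraries here, with log2 ratios of -0.76 in PyMT-M and 0.25 in PyMT-N. Lgals3bp was higher in cells with capillary UMIs, at log2 ratios of 0.95 (0.45 to 1.50) in PyMT-M and 0.43 (0.15 to 0.71) in PyMT-N. It was lower in cells with venous UMIs in both libraries (log2 ratios -0.73 and -0.52). The 174 PyMT-N blood endothelial cells that also met the lymphatic rule held 182 CPM of Lgals9. Their part in the 191 cells without capillary UMIs was not tested.

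**Figure D5:**
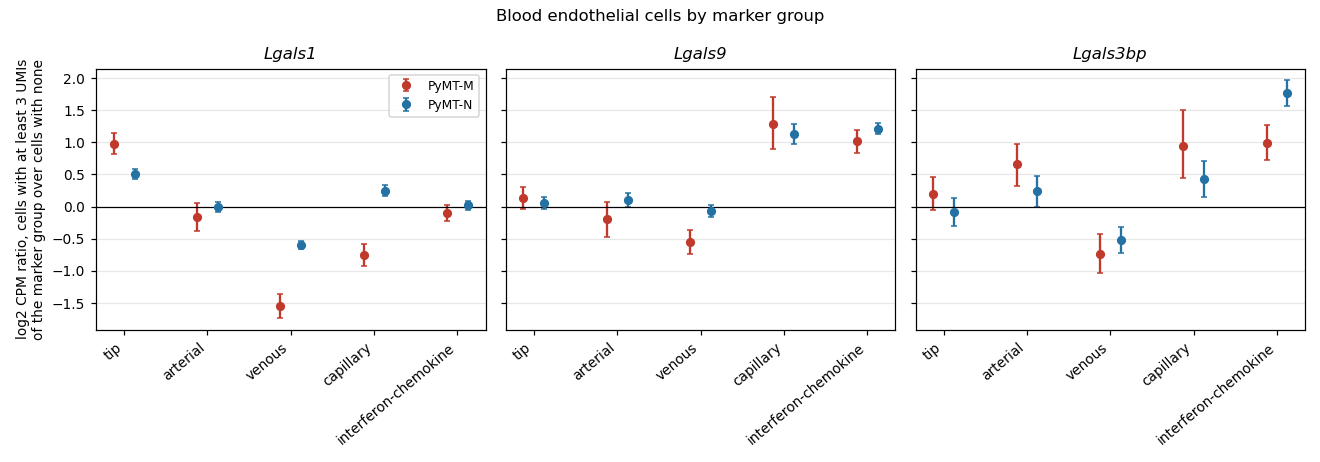
log2 ratio of CPM in blood endothelial cells with at least 3 UMIs of a marker group over those with none, for Lgals1, Lgals9 and Lgals3bp in PyMT-M (red) and PyMT-N (blue), with exact 95% intervals. Lgals9 and Lgals3bp lie above 0 for the interferon-chemokine group in both libraries, at 1.02 and 1.21 and at 0.99 and 1.77, and Lgals1 lies above 0 for tip and below 0 for venous cells.

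In the Ptprc+ cells, Lgals3 had its highest level in the myeloid subset, those with at least 3 UMIs of the macrophage and monocyte genes Csf1r, Lyz2, C1qa and Cd68. It stood at 1996 CPM (1901 to 2095) in 131 PyMT-M cells and 212 CPM (194 to 231) in 146 PyMT-N cells, for a log2 ratio of 3.23 (3.09 to 3.38). With at most 1 keratin or Rhox5 UMI allowed, the values were 2513 and 233 CPM. Cells with lymphocyte UMIs and without the myeloid ones held 615 and 98.0 CPM, and cells of neither subset 1048 and 51.7 CPM. Of the 3053 Lgals3 UMIs of PyMT-M Ptprc+ cells, 1635 lay in the myeloid subset. Among cells with at most 1 keratin or Rhox5 UMI, 1105 of 1211 lay there. Outside the myeloid subset, most PyMT-M Lgals3 UMIs therefore came from cells with more than 1 keratin or Rhox5 UMI. The same counts in PyMT-N were 519 of 692, and 472 of 530 with that limit. Levels of the lymphocyte and neither subsets with that limit are not given here. Myeloid markers summed to 6764 and 5132 CPM in the 2 myeloid subsets, whose median depths were 3718 and 13159 UMIs. Lymphocyte markers summed there to 360.2 and 1374 CPM, and to 1360 and 1576 CPM in the lymphocyte subsets. The PyMT-N myeloid subset thus lay near the PyMT-N lymphocyte subset in these markers, unlike that of PyMT-M. Thinning to 2000 UMIs kept 105 of the 131 PyMT-M and 144 of the 146 PyMT-N myeloid cells. Of those kept, 93.3% in PyMT-M and 33.3% in PyMT-N held an Lgals3 UMI. Among the other members there, Lgals1 had a log2 ratio of 0.80 (0.70 to 0.89), Lgals3bp of 0.91 (0.56 to 1.26) and Lgals9 of -0.15 with an interval that includes 0. Lgals7 stood at 4.88 and 254 CPM, for a log2 ratio of -5.70 (-7.58 to -4.33), and at 2.27 and 33.0 CPM (-3.86) with at most 1 keratin or Rhox5 UMI.

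Fibroblasts and lymphatic cells were few. Fibroblast Lgals3 stood at 666 CPM in PyMT-M and 33.3 CPM in PyMT-N, and at 155 and 26.0 CPM among cells with at most 1 keratin or Rhox5 UMI, so the log2 ratio moved from 4.32 to 2.57. Fibroblast Lgals3bp was 3.42 times as high in PyMT-M, and its log2 ratio went from 1.77 to 2.14 in the same cells. Fibroblast Lgals1 had a log2 ratio of 0.00 (-0.06 to 0.06) that became -0.13 (-0.21 to -0.05) in those cells.

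Lgals7 in the other PyMT-N classes moved with keratin UMIs. It fell from 412 to 67.1 CPM in fibroblasts, from 491 to 29.3 CPM in Ptprc+ cells and from 237 to 19.8 CPM in lymphatic cells when cells with more than 1 keratin or Rhox5 UMI were left out. No Lgals7 UMI was counted in the 20 PyMT-M lymphatic cells. Against a floor of 3 counts over that library's class, the PyMT-N lymphatic level was at least 7.04-fold higher, and without the keratin-bearing cells it lay under the floor, so no bound could be given. Lymphatic Lgals3 was 112 CPM (53.9 to 207) in PyMT-M and 26.8 CPM (21.1 to 33.5) in PyMT-N, and Lgals3bp 157 CPM (86.0 to 264) and 64.5 CPM (55.5 to 74.6). The PyMT-M Lgals3 value rested on 10 UMIs in 3 of the 20 cells, and on 6 UMIs in 2 cells without the keratin-bearing cell. In the alternatives run, the lymphatic log2 ratio went from 0.24 to 2.42 for Lgals3 and from 0.43 to 1.59 for Lgals3bp. Lgals1 and Lgals9 had log2 ratios of -0.23 and -0.47 in lymphatic cells, with intervals that include 0. Without the keratin-bearing cells the Lgals1 ratio was -0.62 (-1.20 to -0.10).

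Of the other galectins listed, Lgals8 and Lgalsl alone passed 50 UMIs in blood endothelial cells. Lgals8, a tandem-repeat galectin that senses damaged vesicles, stood at 57.1 and 60.1 CPM (log2 ratio -0.07), and Lgalsl, a galectin-related protein, at 16.1 and 10.1 CPM (0.68). In tumor cells Lgals8 was lower in PyMT-M, at 15.3 against 42.3 CPM, and Lgalsl was higher, at 33.4 against 6.31 CPM. Lgals4 stood at 1.50 and 1.62 CPM in blood endothelial cells, and Lgals2, Lgals12 and Grifin had no UMI there. Lgals6, a close relative of Lgals4, was not analysed here.

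Of the enzymes that build or cap galectin ligands, 18 in all, 0 were higher beyond 2-fold in PyMT-M blood endothelial cells and 2 were lower, beside 3.82% and 8.38% of all genes tested, with a median log2 ratio of 0.00 beside -0.03 over all genes. St6gal1, whose alpha2,6-linked sialic acid blocks galectin-1 binding, stood at 12.6 against 51.4 CPM (log2 ratio -2.03). Gcnt1, which branches core O-glycans, stood at 2.69 against 6.07 CPM (-1.17), and B3gnt5, of the lactosylceramide series, had a log2 ratio of -0.98. The highest were Gcnt2 (0.61), St3gal4 (0.51) and C1galt1c1 (0.43), the chaperone of core O-glycan galactosyltransferase.

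Among receptors and partners of galectins, 23 of 27 had at least 50 UMIs, of which 2 were higher and 3 lower beyond 2-fold in PyMT-M, beside the same 3.82% and 8.38% of all genes, with a median log2 ratio of -0.10. Mertk, a receptor for the engulfment of dying cells, stood at 33.2 against 4.11 CPM (3.01), the adhesion receptor Cd44 at 21.2 against 10.5 CPM (1.02), and the laminin receptor subunit Itgb4 had a log2 ratio of 0.89. The lowest were the leukocyte genes Ptprc, at 10.2 against 78.0 CPM (-2.94), and Trem2 and Spn, which had no UMI in PyMT-M and 4.86 and 4.45 CPM in PyMT-N. Ptprc also defines the 58 Ptprc+ cells among PyMT-N blood endothelial cells, and the part of those cells in the other two was not tested. Havcr2, the galectin-9 receptor Tim-3, had 27 UMIs in all.

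Interferon-induced genes were higher in PyMT-M blood endothelial cells, as Lgals9 and Lgals3bp were. Of 22 genes, all had log2 ratios above 0, and 17 were higher beyond 2-fold, where 3.82% of all genes were, with a median of 1.13 beside -0.03. The highest were Ifit3 (1.98), Irf7 (1.94) and Isg15 (1.93), an antiviral effector, a transcription factor of the interferon response and a ubiquitin-like modifier, and among the lowest were Irf1 (0.34) and Irf9 (0.69), transcription factors of the response. Like the other lists, this one was chosen with earlier results of these data known, so its counts are a description only. The Lgals3bp ratio of 1.94 lies near the top of this list and the Lgals9 ratio of 0.80 near its bottom. In tumor cells 10 of the 22 were higher beyond 2-fold and 1 lower, where 21.0% and 25.6% of all genes were, with a median of 0.98 beside -0.09.

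The genes whose levels over the 10 combinations of class and library were most like those of each member were ranked by Pearson's r of log2(CPM + 5) among 13747 genes, as a description over points that share 2 libraries and some cells. Lgals1 was most like Pcolce (r = 0.993), Col16a1, Chpf, Ak1 and Serpinf1, of which Pcolce and Col16a1 belong to collagen assembly. Lgals7 was most like Crabp2 (0.979), Hs3st5, Krt18, Slc47a1 and Scx, and Krt18 is a gene of the class rule. Lgals3 was most like Prune2 (0.979), Umps, Phgdh, Rpl13 and Eef1d, and Lgals9 was most like Zcchc17 (0.963), Ebf3, Nid2 and Prex2. For Lgals3bp the closest was Cry2, at 0.887, followed by Scamp3, Plod3, Armc6 and Selenow.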

How the data were processed

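The 2 libraries, 1 per model, were analysed. The deposited values are raw UMI counts for each barcode and gene, which the authors made with Cell Ranger 8.0.0 from 10x 3′ libraries; the labels name build mm39, and coordinates printed here are only those of RefSeq promoters on GRCm38.p6. Cells with at least 200 genes and at most 10% mitochondrial UMIs were classed by the UMI rules given above. Counts were summed per class and library and divided by the class total (CPM). With 1 library per model no test was run. Ratios were compared by exact Poisson intervals, and a class at 0 was set to 3 counts. No doublet caller was run. Cells were thinned without replacement to 2000 UMIs for shares. The genes, lists and marker groups were chosen with earlier results of these data known. Named genes are the members, all listed galectins, the 3 highest and 3 lowest of each list, and the 5 most alike per member, of which 2 are not reported here. Intervals were tested only on simulated class sums with Poisson counting error, so variation between cells was not covered. Python 3.11.15, numpy 2.4.6, scipy 1.17.1 and pandas 2.3.3 were used.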

Additional observations from a re-analysis of the deposited data

Results flagged for a closer look

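In 3 cases the ratio of PyMT-M over PyMT-N in another class had the opposite sign to that in blood endothelial cells, with both counting intervals clear of 0. For Lgals1 the log2 ratio was 0.52 in blood endothelial and -0.28 in tumor cells, 0.80 apart. For Lgals9 it was 0.80 in blood endothelial and -0.07 in tumor cells, 0.87 apart. For Lgals9 it was -0.43 in Ptprc+ cells, 1.23 below the blood endothelial value. Among Ptprc+ cells with at most 1 keratin or Rhox5 UMI the Lgals9 ratio was -0.15 (-0.47 to 0.16), an interval that includes 0. With 1 library per model these differences were not tested. The tumor-cell and Ptprc+ ratios of Lgals9 change sign under other settings, as given in the next section, whereas the Lgals1 tumor-cell ratio stayed below 0 in the alternatives run, from -0.28 to -0.07.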

How the results depend on the processing

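No paired analysis was possible because each model has 1 library. Of the 5 blood endothelial log2 ratios, none changed sign in the alternatives run. Lgals1 was 0.66 with detected genes within 2-fold of the median, 0.45 without cells over 2 times the median UMIs, 0.40 as a mean over cells and 0.37 in cells thinned to 2000 UMIs. Lgals3 was 2.32 in cells of 1 class only and 1.84 without the deep cells, Lgals9 was 0.67 in cells of 1 class only, and Lgals7 was -2.59 in thinned cells, where PyMT-M was at 0 and set to 3 counts. Lgals3bp ranged from 1.87 to 2.04. Lgals9 turned sign in Ptprc+ cells without the deep cells (0.028), and in tumor cells with other totals (0.13) and with the median set to 0 (0.019). The number of genes beyond 2-fold higher in PyMT-M tumor cells was 1 without the deep cells and 1 as a mean over cells. In lymphatic cells 0 were higher in cells of 1 class only, and 0 were lower without the deep cells, as a mean over cells, with at most 1 keratin or Rhox5 UMI and in thinned cells. The gene lower in the main setting was Lgals7, which had no UMI in PyMT-M lymphatic cells. Its ratio in those settings rested on the floor of 3 counts or could not be given. The counts of 0 lower therefore do not show a difference under 2-fold. In Ptprc+ cells 3 were higher in thinned cells. The keratin limit outside blood endothelial cells and the thinned ratios were chosen after seeing the data. With 20 PyMT-M lymphatic cells, a level under 33.7 CPM is at or below 3 counts. The causes were not tested.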

Other observations

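Cells that met the rule of no class, 721 in PyMT-M and 693 in PyMT-N, belong to no comparison above. Lgals3 stood at 1061 CPM in PyMT-M and 136 CPM in PyMT-N, Lgals7 at 12.3 and 1726 CPM, and Lgals9 at 67.0 and 87.4 CPM. Of these cells, 482 and 591 held more than 1 keratin or Rhox5 UMI.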
